A study of Mus musculus with 19 samples.

Results

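The genes described here are 8 transcription factors linked to formative pluripotency, Otx2, Foxd3, Pou3f1, Zic2, Zic5, Grhl2, Sall2 and Sox3. They were taken by name from 54119 gene sums, and all 8 are among the 14972 genes that passed a filter of at least 1 TPM (transcripts per 1000000 transcripts) in at least 3 libraries. RNA was sequenced from 19 mouse cell libraries in 6 groups, as stranded total RNA depleted of ribosomal RNA. Wildtype XX cells of the LF2 line gave 3 libraries of embryonic stem cells (mESC) and 3 of epiblast-like cells (EpiLC), and wildtype XY cells of the E14 line gave 3 and 3. Tet3-/- XX cells of the LF2 line gave 4 mESC libraries, mutants #1 to #4, and 3 EpiLC libraries, mutants #1, #3 and #4. All mESC were cultured in 2i medium (N2B27 with inhibitors of GSK3 and MEK1/2) and LIF, and EpiLC were derived from them over 5 days in FGF5 and Activin A without LIF. The design asks if TET3, an enzyme that oxidises 5-methylcytosine, is required when mESC become EpiLC. Sex and cell line cannot be told apart here, because every XX library is LF2 and every XY library is E14. The labels do not say whether replicates were separate cultures, nor whether the numbered mutants are separate clones, so p-values measure the spread between these libraries.

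Formative pluripotency lies between the naive state of mESC and the primed state of the later epiblast. OTX2, a homeodomain factor, and POU3F1 (OCT6), a POU factor, are among its best known markers, and OTX2 binds enhancers together with OCT4 as cells leave the naive state. GRHL2 activates enhancers of epithelial genes, FOXD3 is a forkhead factor that represses enhancers in early pluripotent cells, and ZIC2, ZIC5 and SALL2 are zinc finger factors. SOX3 belongs to the SOXB1 group with SOX2 and is encoded on the X chromosome.

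TPM keeps no sequencing depth, so precision rests on the spread between libraries. One small cytoplasmic RNA gene, Rn7s1, took 23.5% to 43.7% of TPM, which lowers the TPM of other genes in the libraries where it is high. Results are therefore given on TPM and again after median-of-ratios scaling, which sets the typical gene equal across libraries. Between XY EpiLC and XY mESC the median of all tested genes shifted by 0.54 on the log2(TPM + 1) scale, against 0.14 in XX and -0.13 in Tet3-/- cells. The summed TPM of 6 naive markers lay between 295 and 723 in mESC and between 26.9 and 91.5 in EpiLC. In XY EpiLC the sum was 83.9 to 91.5 TPM, most of it Nanog, whose mean is given below. Klf4, Esrrb and Tbx3 lay below 1 TPM in every XY EpiLC library, so the sum does not rank the naive expression of the EpiLC groups. The summed TPM of 4 epiblast markers other than the 8 factors was 32.2 to 41.0 in XX EpiLC, with Lef1 below 1 TPM, and 221 to 280 in XY EpiLC. Mutant #3 EpiLC stood apart: T, Mixl1 and Eomes, markers of the primitive streak, summed to 124.5 TPM there against 2.95 and 3.16 in the other mutants, and primitive endoderm markers to 13.5 against 0.943 and 0.922. Neural ectoderm markers summed to at most 1.31 TPM and feeder fibroblast markers to at most 9.31 TPM in any library, both in XY EpiLC, and trophoblast markers to at most 20.3 TPM, in XX mESC. In XX EpiLC the streak markers summed to 2.88 to 3.17 TPM and in XY EpiLC to 21.4 to 32.7. Tet3 RNA measured 0.661 ± 0.174 TPM in Tet3-/- mESC (SD, n = 4) against 0.761 ± 0.269 in XX mESC (SD, n = 3). It measured 1.04 ± 0.363 in Tet3-/- EpiLC against 1.65 ± 0.386 in XX EpiLC (SD, n = 3 each), and neither difference passed the test. The labels do not give the deleted part of Tet3, so its RNA level does not check the genotype.

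In the step from mESC to EpiLC, 5 of the factors rose in all 3 cell backgrounds: Pou3f1, Zic2, Zic5, Sall2 and Sox3. Foxd3 fell in all 3. Otx2 and Grhl2 went different ways by background: both rose in XY cells, Otx2 fell in XX cells, and the other changes of this pair did not pass the test. A gene was called at an adjusted p under 0.05 (limma on log2(TPM + 1), Benjamini-Hochberg adjusted over all tested genes). By that rule 7 of 8 factors were called in XX cells, 5 higher and 2 lower, where 31.3% of all genes were called, 19.2% higher and 12.2% lower. In XY cells all 8 were called, 7 higher and 1 lower, against 50.5% of all genes, 41.1% higher and 9.36% lower. In Tet3-/- cells 6 were called, 5 higher and 1 lower, against 35.1% of all genes, 13.6% higher and 21.5% lower. As medians over the 8, XX cells had a log2 fold change of 1.07, XY cells 3.15 and Tet3-/- cells 1.61, beside the shifts of all genes given above. On scaled TPM the counts of factors were again 5 and 2, 7 and 1, and 5 and 1. All genes called then came to 50.4% in XX (24.5% higher and 25.9% lower), 51.4% in XY (26.4% and 25%) and 52.4% in Tet3-/- cells (25.2% and 27.2%). In bulk RNA, fewer cells of a type and less RNA per cell cannot be told apart.

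**Figure D1:**
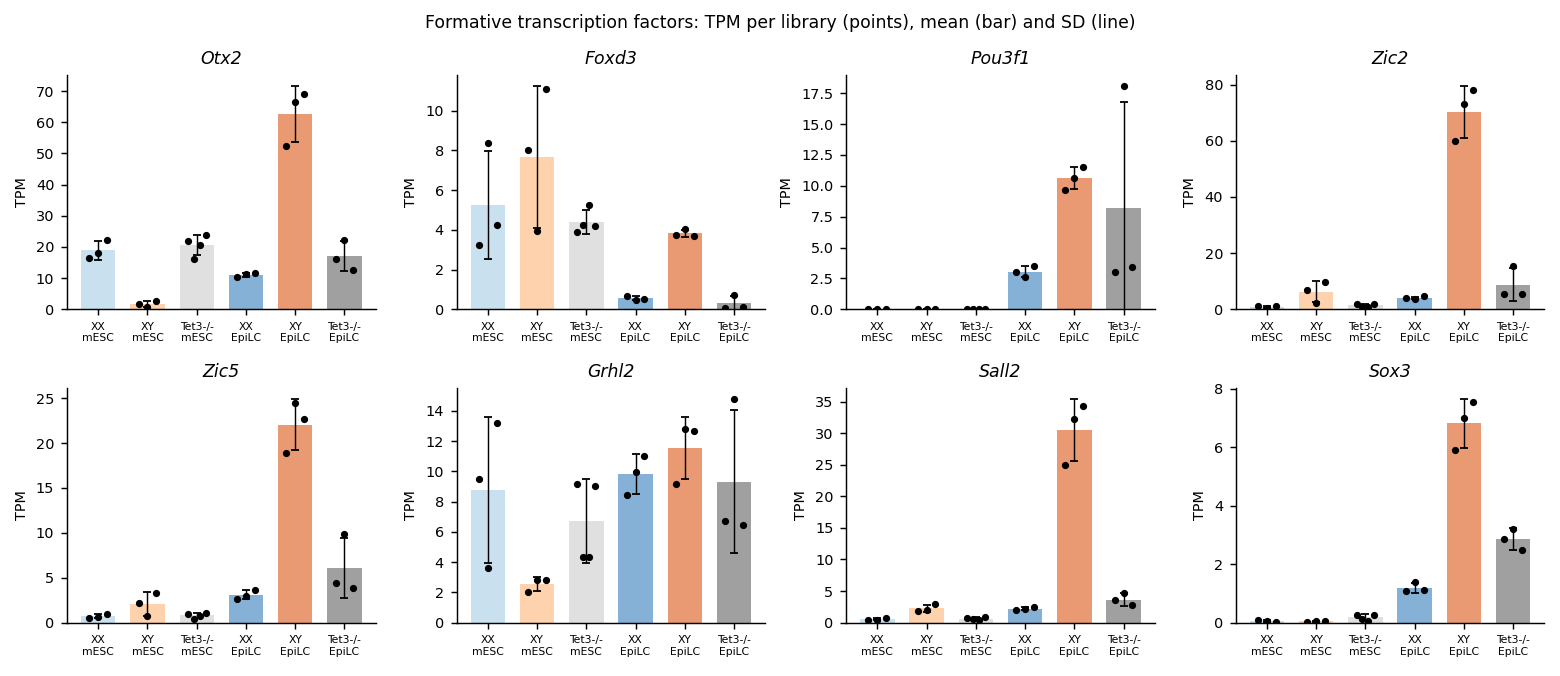
TPM of the 8 factors (y axis, TPM, one scale per gene) in the 6 groups (x axis), with 1 point per library, bars for means and lines for SD. XY EpiLC lies highest for Otx2, Zic2, Zic5, Sall2 and Sox3, Foxd3 is lowest in XX and Tet3-/- EpiLC, and 1 Tet3-/- EpiLC library (mutant #3) lies at 18.1 TPM for Pou3f1.

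**Figure D2:**
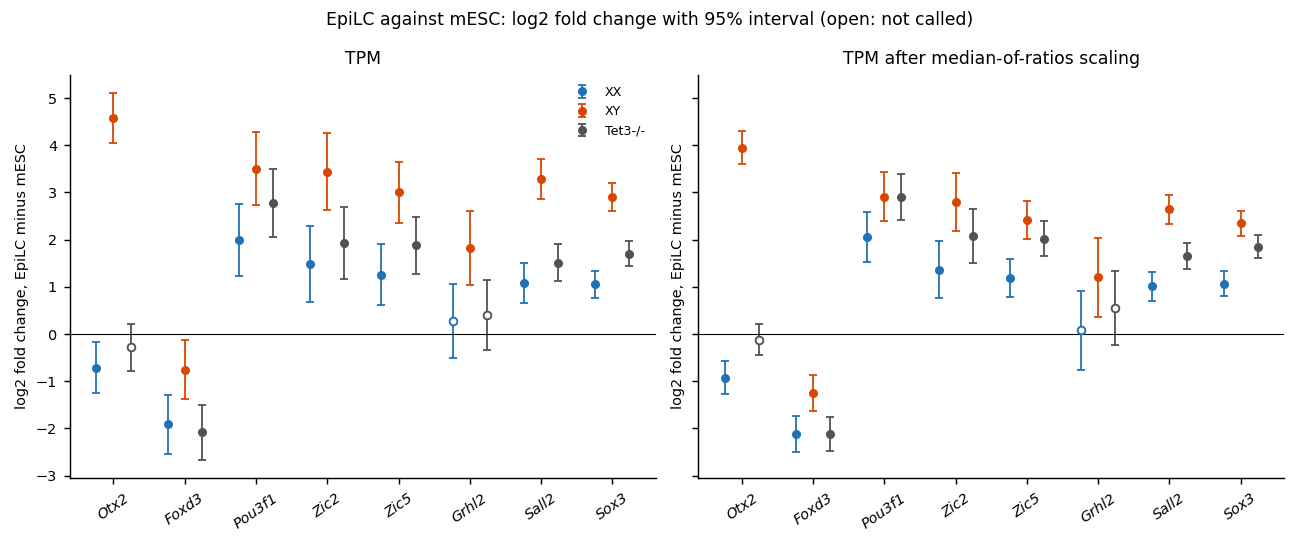
Log2 fold changes from mESC to EpiLC (y axis, log2(TPM + 1) scale) of each factor in XX, XY and Tet3-/- cells, with 95% intervals, from TPM (left) and scaled TPM (right). Open points were not called: Grhl2 in XX and Tet3-/- cells and Otx2 in Tet3-/- cells.

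Otx2 (chr14:48657677-48673819, minus strand, GRCm38) had the widest spread between backgrounds. It measured 16.3, 18.0 and 22.2 TPM in XX mESC and 10.4, 11.2 and 11.5 TPM in XX EpiLC. In XY cells it measured 1.77, 0.845 and 2.62 TPM in mESC and 52.2, 66.5 and 69.2 TPM in EpiLC. So XX cells already held Otx2 RNA before the transition and lost part of it, while XY cells started low and ended above every other group. Tet3-/- mESC measured 21.9, 16.1, 20.5 and 23.8 TPM and Tet3-/- EpiLC 16.1, 22.2 and 12.6 TPM, and these ranges overlap. The log2 fold change was -0.71 ± 0.25 (SE) in XX cells (limma, adjusted p = 0.0398), 4.58 ± 0.25 in XY cells (adjusted p = 1.07e-10) and -0.28 ± 0.24 in Tet3-/- cells (adjusted p = 0.398). The XX call lies close to the threshold and was lost when XX mESC replicate 2 or 3, or any of the 3 XX EpiLC replicates, was left out, with adjusted p-values of 0.0554 to 0.148. It was also lost with a pseudocount of 0.1 in place of 1 (adjusted p = 0.0713), with no filter (adjusted p = 0.0805) and with a replicate block (adjusted p = 0.061). On scaled TPM the XX fall was -0.92.

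Otx2-201 and Otx2-203, whose starts lie close together, carried 44.7% to 53.5% of Otx2 TPM as group means, the largest share in every group. A set of 6 transcripts that start further upstream carried 10.2% in XY mESC and 18.3% to 27.0% in the other groups. Otx2os1, a lincRNA gene on the opposite strand that overlaps Otx2, measured 0.761 TPM in XX mESC and 0.0475 in XY mESC as means, and 0.0475 in XX EpiLC and 0.539 in XY EpiLC. Its means are thus higher in mESC in the XX line and higher in EpiLC in the XY line, as those of Otx2 are. In Tet3-/- cells they were 0.807 in mESC and 0.150 in EpiLC. It did not pass the filter and was not tested.

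Pou3f1 (chr4:124656807-124660655, plus strand), the POU factor OCT6, was close to absent in mESC. All 10 mESC libraries lay between 0.00449 and 0.0321 TPM. In EpiLC it measured 2.99, 2.63 and 3.54 TPM in XX, 9.70, 10.7 and 11.5 TPM in XY, and 3.05, 18.1 and 3.41 TPM in mutants #1, #3 and #4. No EpiLC library overlapped the mESC range, and XX and XY EpiLC did not overlap each other. By limma, XX cells gained 1.99 ± 0.37 on the log2(TPM + 1) scale (SE; adjusted p = 0.000308), XY cells 3.51 ± 0.37 (adjusted p = 2.88e-07) and Tet3-/- cells 2.77 ± 0.34 (adjusted p = 3.1e-06). Adding 1 far understates fold changes from mESC levels this low. The Tet3-/- mean of 8.19 ± 8.58 TPM (SD, n = 3) rests on mutant #3. Without it the mean was 3.23 TPM and the log2 fold change 2.05.

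Foxd3 (chr4:99656299-99658622, plus strand) went against its label as a formative factor, since it was lower in EpiLC in every background. It measured 3.22, 8.36 and 4.23 TPM in XX mESC and 0.679, 0.485 and 0.540 TPM in XX EpiLC. Tet3-/- mESC measured 3.92, 4.23, 5.26 and 4.18 TPM, and mutants #1, #3 and #4 measured 0.0640, 0.740 and 0.103 TPM in EpiLC. In both LF2 backgrounds the mESC and EpiLC ranges are apart. XY cells measured 8.02, 3.94 and 11.1 TPM in mESC and 3.74, 4.04 and 3.71 TPM in EpiLC, and there the ranges overlap. The log2 fold change was -1.92 ± 0.30 in XX (SE; limma, adjusted p = 5.96e-05), -2.08 ± 0.28 in Tet3-/- (adjusted p = 8.68e-06) and -0.75 ± 0.30 in XY cells (adjusted p = 0.0436). The XY call was lost when either mESC replicate 1 or 3 or any EpiLC replicate was left out (adjusted p of 0.0801 to 0.191). It was also lost with a pseudocount of 0.1 (adjusted p = 0.143), with no filter (adjusted p = 0.0891) and when only the 2 groups were fitted (adjusted p = 0.094), while the fall was -1.25 and called on scaled TPM. Gm12688, a lincRNA gene that starts 1316 bases upstream of Foxd3 on the other strand, fell by 0.97 in XX cells (adjusted p = 0.00494) and by 1.18 in Tet3-/- cells (adjusted p = 0.000452). In XY cells its difference was 0.29 (adjusted p = 0.329).

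Grhl2 (chr15:37233036-37363569, plus strand) had gene totals that hid a change of transcript. The totals measured 9.48, 3.64 and 13.2 TPM in XX mESC and 8.46, 9.96 and 11.0 TPM in XX EpiLC. They measured 9.17, 4.33, 4.34 and 9.04 TPM in Tet3-/- mESC and 6.75, 14.8 and 6.44 TPM in Tet3-/- EpiLC. Both pairs of ranges overlap, and the log2 fold changes of 0.28 ± 0.37 in XX (SE; limma, adjusted p = 0.626) and 0.40 ± 0.35 in Tet3-/- cells (adjusted p = 0.421) were not called. In XY cells Grhl2 measured 2.01, 2.79 and 2.81 TPM in mESC and 9.16, 12.8 and 12.7 TPM in EpiLC, with no overlap and a log2 fold change of 1.82 ± 0.37 (adjusted p = 0.000562).

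In mESC of all 3 backgrounds most of the Grhl2 signal was assigned to Grhl2-205, a transcript annotated as non-coding (processed transcript) that starts inside the gene at position 37318403. Its first exon (chr15:37318403-37318531, plus strand) joins exon 9 of the full-length coding transcript Grhl2-201. Grhl2-201 instead begins its coding sequence in the first exon of the gene (chr15:37233387-37233406, plus strand). The 2 beginnings are printed 5′ to 3′ from the GENCODE M21 transcripts (GRCm38) because they set the 2 forms apart, with the bases of the first exon in lower case and the first 21 bases of the next exon in capitals.
Grhl2-205: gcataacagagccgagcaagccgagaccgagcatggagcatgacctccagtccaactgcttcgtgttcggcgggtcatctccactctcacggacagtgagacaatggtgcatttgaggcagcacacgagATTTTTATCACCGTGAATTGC
Grhl2-201: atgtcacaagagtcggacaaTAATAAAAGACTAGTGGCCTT
Grhl2-205 carried 83.6% ± 3.54 of Grhl2 TPM in XX mESC (SD, n = 3), 87.9% ± 5.90 in XY mESC (SD, n = 3) and 83.7% ± 2.94 in Tet3-/- mESC (SD, n = 4). Its share came to 14.7% ± 2.80 in XX EpiLC, 6.88% ± 0.863 in XY EpiLC and 12.3% ± 1.71 in Tet3-/- EpiLC (SD, n = 3 each). No EpiLC library reached the share of any mESC library.

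The transcripts that begin at the first start of the gene, Grhl2-201, Grhl2-203 and Grhl2-204, did the opposite. Summed, they measured 0.797, 0.505 and 1.15 TPM in XX mESC and 6.66, 7.67 and 8.73 TPM in XX EpiLC. They measured 0.0995, 0.366 and 0.222 TPM in XY mESC and 8.26, 11.2 and 10.9 TPM in XY EpiLC. In Tet3-/- cells they measured 1.19, 0.491, 0.479 and 1.03 TPM in mESC and 5.72, 12.3 and 5.27 TPM in EpiLC. The mESC and EpiLC ranges are apart in each background, and Grhl2-204, a short coding transcript, is listed at 0 in all mESC libraries. Grhl2-205 itself measured 8.16, 2.89 and 11.3 TPM in XX mESC and 1.21, 1.76 and 1.33 TPM in XX EpiLC. When genes were summed over protein-coding transcripts alone, Grhl2 rose in all 3 backgrounds, by 1.99 in XX (limma, adjusted p = 1.07e-05), 3.11 in XY (adjusted p = 1.44e-08) and 2.03 in Tet3-/- cells (adjusted p = 2.74e-06). Salmon, the program named in the submitters' processing notes, assigns reads from shared exons to transcripts by estimation, so these shares are estimates. Grhl2-205 shares its exons after the first with the coding transcript.

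A separate gene annotated at the first start was also measured. Gm16136 (chr15:37231793-37233309, minus strand) is an antisense RNA gene that overlaps that start. It lay between 0 and 0.0619 TPM in the 10 mESC libraries. It measured 1.60, 1.63 and 1.71 TPM in XX EpiLC, 1.30, 1.85 and 2.20 TPM in XY EpiLC, and 1.40, 3.27 and 1.24 TPM in mutants #1, #3 and #4. By limma it rose by 1.38 ± 0.19 on the log2(TPM + 1) scale in XX cells (SE; adjusted p = 1.37e-05), with rises of 1.43 ± 0.19 in XY (adjusted p = 5.29e-06) and 1.47 ± 0.18 in Tet3-/- cells (adjusted p = 2.25e-06). Adding 1 understates these rises too. The libraries were stranded per the labels' protocols, but whether the quantification used the strand is not given in the sources used here. Reads of the 2 genes in their overlap may therefore not be told apart.

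**Figure D3:**
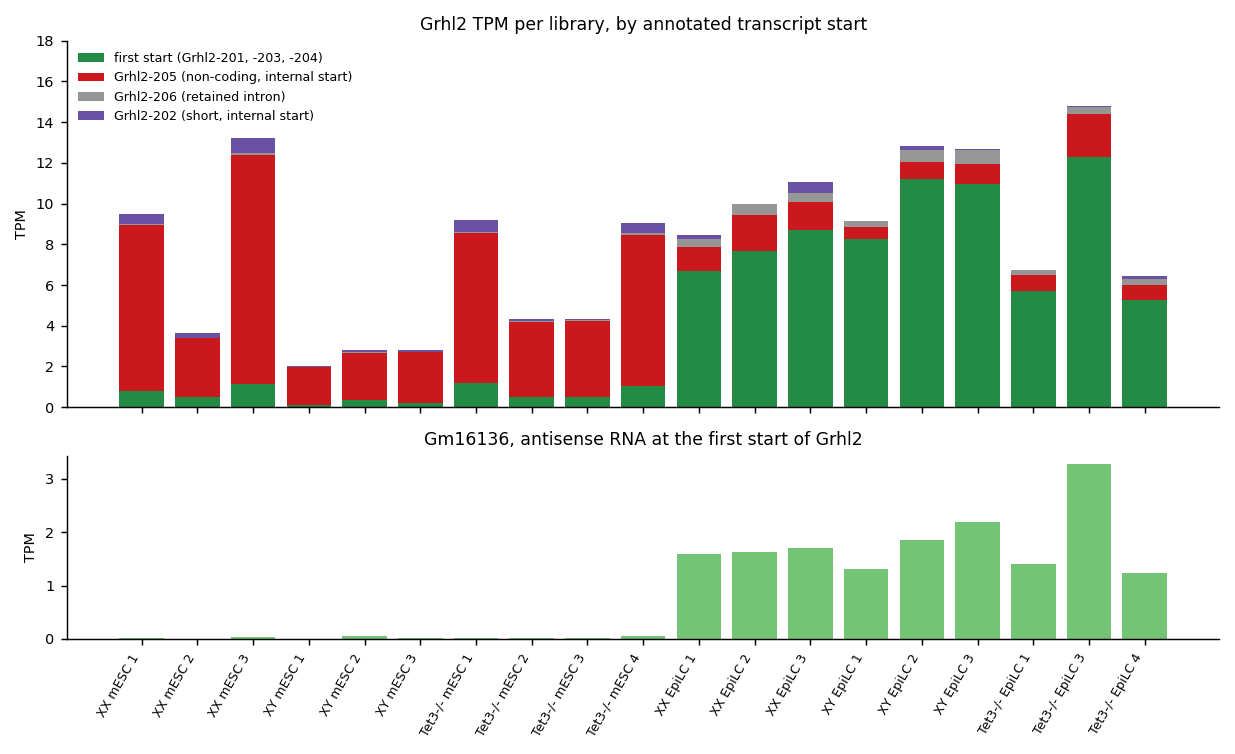
Grhl2 TPM in each library (bars, y axis) stacked by annotated transcript start, above the TPM of the antisense gene Gm16136. Grhl2-205 fills 79.6% to 93.5% of the mESC bars, the first start fills 77.0% to 90.1% of the EpiLC bars, and Gm16136 appears in EpiLC.

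All 8 of 8 listed epithelial genes known as GRHL2 targets rose in EpiLC in XX, XY and Tet3-/- cells on TPM, where 19.2%, 41.1% and 13.6% of all genes were called higher. Their median log2 fold changes were 2.76, 2.91 and 2.31. After scaling 8, 6 and 8 were called higher, against 24.5%, 26.4% and 25.2% of all genes, Cldn4 and Rab25 being the exceptions in XY cells. Esrp1, an epithelial splicing factor, went from 0.278 ± 0.207 TPM in XX mESC to 19.01 ± 2.49 in XX EpiLC and from 0.810 ± 0.253 to 33.99 ± 5.81 in XY cells (SD, n = 3). Cldn6, a tight junction claudin, went from 2.97 ± 1.73 to 102 ± 8.08 TPM in XX cells and from 4.06 ± 2.14 to 72.7 ± 4.40 in XY cells (SD, n = 3). Cdh1, which encodes E-cadherin, rose less, by 1.03 ± 0.33 in XX and 1.41 ± 0.33 in XY cells on the log2 scale (SE; limma, adjusted p of 0.0215 and 0.00167). The paralog Grhl3 went the other way, by -0.95 in XX, -1.49 in XY and -0.89 in Tet3-/- cells (adjusted p of 0.0273, 0.000743 and 0.0253).

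Zic2 (chr14:122475435-122479852, plus strand) and Zic5 (chr14:122456795-122465677, minus strand) lie 9758 bases apart and are transcribed away from each other. Zic2 measured 1.07, 0.356 and 1.15 TPM in XX mESC and 3.86, 3.81 and 4.60 TPM in XX EpiLC. It measured 6.92, 2.27 and 9.67 TPM in XY mESC and 59.9, 73.0 and 77.9 TPM in XY EpiLC. In Tet3-/- cells it measured 1.81, 0.853, 0.892 and 1.99 TPM in mESC and 5.45, 15.4 and 5.55 TPM in EpiLC. The states are apart in each background, and XX EpiLC lies within the range of XY mESC. Log2 fold changes were 1.48 ± 0.39 in XX (SE; limma, adjusted p = 0.00617), 3.44 ± 0.39 in XY (adjusted p = 7.44e-07) and 1.92 ± 0.36 in Tet3-/- cells (adjusted p = 0.000322).

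Zic5 measured 0.545, 0.591 and 0.982 TPM in XX mESC and 2.65, 2.95 and 3.64 TPM in XX EpiLC, and 2.16, 0.711 and 3.30 TPM in XY mESC and 18.9, 24.5 and 22.7 TPM in XY EpiLC. Tet3-/- cells measured 0.967, 0.413, 0.765 and 1.103 TPM in mESC and 4.37, 9.89 and 3.88 TPM in EpiLC. Here too the 2 states are apart in each background. Log2 fold changes were 1.26 ± 0.31 in XX (SE; limma, adjusted p = 0.00379), 3.01 ± 0.31 in XY (adjusted p = 2.32e-07) and 1.88 ± 0.29 in Tet3-/- cells (adjusted p = 3.9e-05).

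The ratio of Zic2 to Zic5 TPM was higher in XY than in LF2 libraries in both states. It was 3.11 ± 0.153 in XY mESC and 3.19 ± 0.225 in XY EpiLC (SD, n = 3 each). In XX cells it was 1.24 ± 0.678 in mESC and 1.34 ± 0.105 in EpiLC (SD, n = 3 each), and in Tet3-/- cells 1.73 ± 0.390 in mESC (SD, n = 4) and 1.41 ± 0.156 in EpiLC (SD, n = 3). Every XY library lay at 2.93 or above and every LF2 library at 2.06 or below. The ratio does not depend on the scaling of a library, and it was chosen after its values were seen, so it is given with no test. Between the 2 genes lies 2610035F20Rik, a non-coding gene that starts 236 bases from the Zic2 start, with means of 0.911 TPM in XY EpiLC and 0.0191 to 0.174 TPM in the other groups. It did not pass the filter.

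Sall2 (chr14:52311172-52328762, minus strand) has 2 annotated starts with different first coding exons. Sall2 measured 0.481, 0.348 and 0.723 TPM in XX mESC and 2.00, 2.15 and 2.42 TPM in XX EpiLC. It measured 1.81, 1.98 and 2.92 TPM in XY mESC and 25.0, 32.3 and 34.3 TPM in XY EpiLC. Tet3-/- cells measured 0.667, 0.583, 0.343 and 0.880 TPM in mESC and 3.54, 4.70 and 2.72 TPM in EpiLC. EpiLC were above mESC in each background without overlap, and XX EpiLC again fell within the range of XY mESC. Log2 fold changes were 1.08 ± 0.20 in XX (SE; limma, adjusted p = 0.000349), 3.29 ± 0.20 in XY (adjusted p = 3.42e-10) and 1.51 ± 0.19 in Tet3-/- cells (adjusted p = 3.34e-06).

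Most Sall2 RNA was assigned to Sall2-202, which starts at position 52316323, and a smaller share to Sall2-201, which starts upstream at 52328762. The coding beginnings differ between the 2 forms (chr14:52328103-52328175 for Sall2-201 and chr14:52316043-52316109 for Sall2-202, minus strand). They are printed 5′ to 3′ from GENCODE M21 (GRCm38), with the first 21 bases of the shared second exon in capitals.
Sall2-201: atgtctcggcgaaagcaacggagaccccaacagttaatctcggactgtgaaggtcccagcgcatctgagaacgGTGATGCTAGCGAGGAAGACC
Sall2-202: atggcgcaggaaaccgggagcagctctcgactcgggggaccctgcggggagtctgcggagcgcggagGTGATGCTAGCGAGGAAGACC
Sall2-201 measured 0.109, 0.274 and 0.172 TPM in XX EpiLC, 5.28, 6.33 and 7.56 TPM in XY EpiLC, and 0.526, 0.518 and 0.436 TPM in mutants #1, #3 and #4. All mESC libraries lay at 0.0466 TPM or below, and 4 of the 10 list it at 0. As a share of Sall2 it was 8.42% ± 3.83 in XX EpiLC, 20.9% ± 1.21 in XY EpiLC and 14.0% ± 2.63 in Tet3-/- EpiLC (SD, n = 3 each). XY EpiLC lay above every other library in this share, while the XX and Tet3-/- EpiLC ranges overlapped.

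The windows before the 2 starts differ in CG content, the dinucleotide at which DNA is methylated and on which TET enzymes act. They are printed 5′ to 3′ on the minus strand from the RefSeq promoter table (GRCm38.p6), with each CG in capitals: 158 bases for Sall2-201 (chr14:52328763-52328920) and 250 bases for Sall2-202 (chr14:52316324-52316573).
Sall2-201 upstream: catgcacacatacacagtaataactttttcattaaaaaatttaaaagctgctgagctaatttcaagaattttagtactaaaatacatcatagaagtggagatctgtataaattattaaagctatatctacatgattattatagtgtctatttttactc
Sall2-202 upstream: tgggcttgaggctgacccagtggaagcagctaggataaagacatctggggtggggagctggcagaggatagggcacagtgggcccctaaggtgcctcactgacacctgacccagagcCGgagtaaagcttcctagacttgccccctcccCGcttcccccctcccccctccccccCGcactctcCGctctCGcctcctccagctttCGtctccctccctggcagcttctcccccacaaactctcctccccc
Over the full 300-base RefSeq windows the upstream start holds 1 CG and the downstream start 10, where the median of all 32851 windows in the table is 7. As few CGs as the upstream window, or fewer, occur in 14.1% of all windows. The table holds windows for 4 of the 8 factors: Foxd3 with 25 CGs, Zic5 with 15, Otx2 with 6 to 16 over 4 windows, and Sall2. No methylation was measured in these files.

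**Figure D4:**
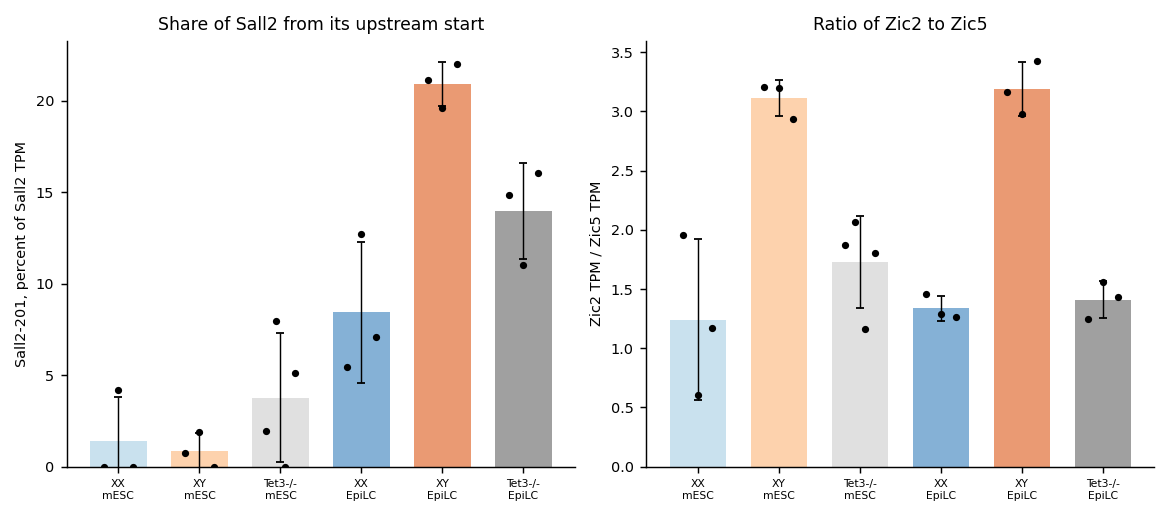
Left, share of Sall2 TPM assigned to Sall2-201, which starts upstream (y axis, percent), and right, ratio of Zic2 to Zic5 TPM (y axis), by group. Points are libraries, bars means and lines SD. XY EpiLC stand at 19.6% to 22.0% on the left, and both XY groups stand above all LF2 groups on the right.

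Sox3 (chrX:60891366-60893430, minus strand) was low in mESC. It measured 0.0855, 0.0363 and 0.0355 TPM in XX, 0.0150, 0.0529 and 0.0450 TPM in XY, and 0.255, 0.135, 0.0664 and 0.271 TPM in Tet3-/- mESC. In EpiLC it measured 1.07, 1.38 and 1.12 TPM in XX, 5.89, 6.98 and 7.54 TPM in XY, and 2.87, 3.21 and 2.49 TPM in mutants #1, #3 and #4. The 3 EpiLC groups are apart from mESC and from each other, and mutant #3 lies with the other mutants. On the log2(TPM + 1) scale the differences were 1.05 ± 0.14 in XX (SE; limma, adjusted p = 7.73e-06), 2.91 ± 0.14 in XY (adjusted p = 1.72e-11) and 1.71 ± 0.13 in Tet3-/- cells (adjusted p = 5.99e-09). Adding 1 understates fold changes from mESC levels this low, so these values do not rank the fold rises of XX and Tet3-/- cells.

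The SOXB1 relative Sox2, a core pluripotency factor, went the other way in every background. It fell from 73.0 ± 18.9 to 15.8 ± 1.37 TPM in XX, from 90.4 ± 20.997 to 3.18 ± 0.278 TPM in XY (SD, n = 3 each) and from 103 ± 5.03 (SD, n = 4) to 7.02 ± 2.54 TPM (SD, n = 3) in Tet3-/- cells. In the same order this was -2.11, -4.43 and -3.73 on the log2 scale by limma, with adjusted p of 1.64e-06, 8.96e-11 and 3.93e-10. In XY EpiLC the level of Sox3, 6.81 ± 0.837 TPM, was above that of Sox2, and in XX and Tet3-/- EpiLC it was below. Among paralogs of the other factors, Sall4 rose in XY cells by 1.64 on the log2 scale (limma, adjusted p = 0.00811), where Sall3 differed by -1.43 (adjusted p = 0.000108), a fall. Neither was called in XX or Tet3-/- cells.

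Between Tet3-/- and XX mESC 0 of the 8 factors were called by limma, where 0.601% of all genes were, and 0 had an unadjusted p under 0.05. On scaled TPM 0 were called as well, where 3.19% of all genes were. The differences ranged from -0.27 (Grhl2) to 0.36 (Zic2) on the log2 scale. Their 95% intervals reach from -0.11 to 0.43 for Sox3, the narrowest, and from -0.40 to 1.12 for Zic2, the widest. Sox3 lay at 0.0355 to 0.0855 TPM in XX and 0.0664 to 0.271 TPM in Tet3-/- mESC. Adding 1 understates fold changes at such levels, so its narrow interval does not show equal levels.

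In EpiLC, Sox3 was higher in Tet3-/- than in XX cells, by 0.82 ± 0.14 on the log2 scale (SE; limma, adjusted p = 0.00452), and it was the 1 factor called on TPM, where 1.08% of all genes were called and 0.12% were called higher. All 3 mutants lay above all 3 XX libraries. At an unadjusted p under 0.05 there were 5 factors, all higher in the mutants. The share of all genes under this unadjusted threshold was not counted for any comparison, so such counts have no background. On scaled TPM, where 5.46% of all genes were called and 2.5% were called higher, 4 factors were called higher: Otx2 by 0.66 (adjusted p = 0.0286), Zic5 by 0.79 (adjusted p = 0.0221), Sall2 by 0.62 (adjusted p = 0.0174) and Sox3 by 0.93. Otx2, Zic5 and Sall2 were above the XX range in all 3 mutants on TPM as well. So was Zic2, at 5.45 TPM or more against at most 4.60 TPM, without a call on either scale. The share of all genes placed so was not counted, so this placing adds no weight to the calls. Of 10 other listed formative genes, 0 were called between these groups on TPM and 1 was called higher on scaled TPM, with medians of 0.11 and 0.21. The 4 epiblast markers summed to 30.7, 121.6 and 32.8 TPM in mutants #1, #3 and #4, against 32.2 to 41.0 TPM in XX EpiLC. Of 11 listed naive factors, 1 (Esrrb) was called lower in Tet3-/- EpiLC on TPM and 8 on scaled TPM. Their medians were -0.76 on both scales, and 443 of all 14972 genes were called lower on scaled TPM. The 6 naive markers summed to 26.9, 65.4 and 28.8 TPM in mutants #1, #3 and #4 against 77.5 to 86.8 TPM in XX EpiLC, and their part in the result was not tested. The Sox3 call on TPM was lost without XX EpiLC replicate 3 (adjusted p = 0.0563), with a pseudocount of 0.1 in place of 1 (adjusted p = 0.092) and when only these 2 groups were fitted (adjusted p = 0.154).

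Mutant #3 held the highest EpiLC value among the mutants for each of the 8 factors on TPM. Its values were 18.1 TPM of Pou3f1 against 3.05 and 3.41, and 15.4 TPM of Zic2 against 5.45 and 5.55. On scaled TPM it was the highest mutant for Foxd3, Pou3f1, Zic2, Zic5 and Grhl2 and the lowest for Otx2, Sall2 and Sox3. T measured 94.3 TPM there against 1.03 and 0.843 in the other mutants, Fgf5 43.7 against 3.605 and 3.58, and Foxa2 5.27 against 0.0589 and 0.0257. Its streak and endoderm marker sums, given above, moved with these values, and their part in them was not tested. As mESC, mutant #3 measured 0.0149 TPM of Pou3f1 and 0.0958 TPM of T, where the other mutants measured 0.0202 to 0.0262 and 0.0736 to 0.626. Without this library the Tet3-/- EpiLC means were 5.50 TPM for Zic2, 4.12 for Zic5, 14.4 for Otx2 and 6.60 for Grhl2, in place of 8.80, 6.05, 17.0 and 9.33. The Sox3 difference from XX EpiLC was then 0.75 (adjusted p = 0.00743), and those of Pou3f1 and Zic2 were 0.07 and 0.36 in place of 0.79 and 0.80. With scaling and without mutant #3, a setting chosen after the data were seen, 4 factors were called higher. These were Otx2 by 0.75, Pou3f1 by 0.41, Sall2 by 0.71 and Sox3 by 1.09. Of the 14972 tested genes 718 were called in this setting, 354 of them higher. Zic5 was then at 0.69 and not called (adjusted p = 0.0786).

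**Figure D5:**
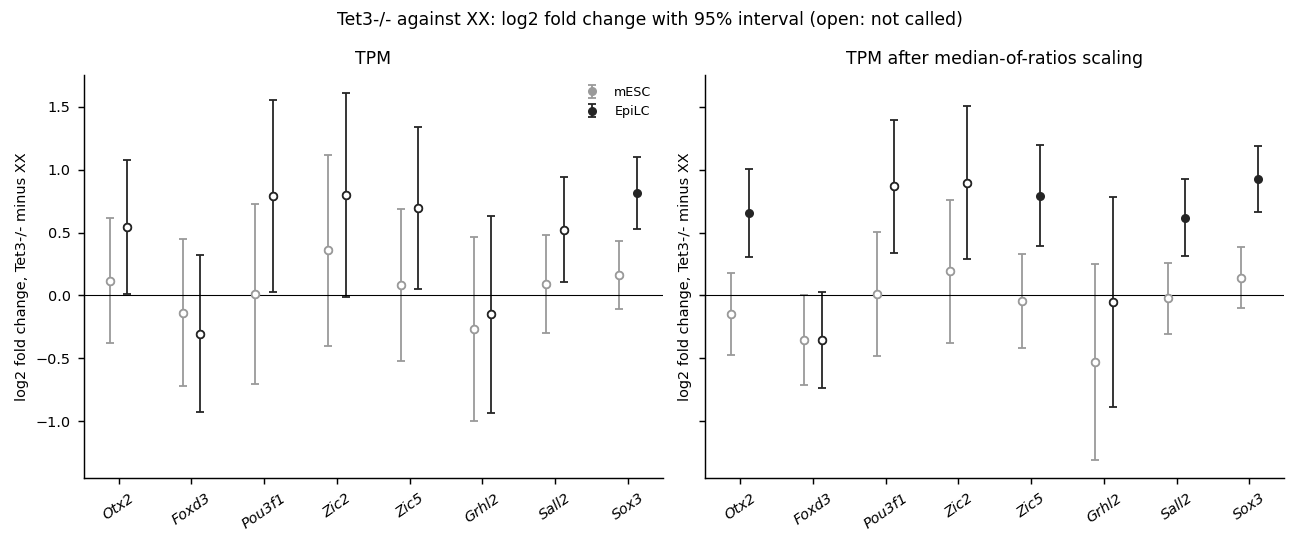
Log2 fold changes of Tet3-/- against XX cells (y axis, log2(TPM + 1) scale) in mESC and EpiLC with 95% intervals, from TPM (left) and scaled TPM (right). Filled points were called: Sox3 in EpiLC on TPM, and Otx2, Zic5, Sall2 and Sox3 in EpiLC after scaling.

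The test of the design's question, the Tet3-/- transition minus the XX transition, called 0 of the 8 factors by limma on TPM, where 0.174% of all genes were called. At an unadjusted p under 0.05 there was 1, Sox3, at 0.65 ± 0.19 (SE; adjusted p = 0.259). On scaled TPM Sox3 was called, at 0.78 (adjusted p = 0.0421), where 0.661% of all genes were called. Sox3 was low in mESC, at means of 0.0524 TPM in XX and 0.182 TPM in Tet3-/- cells, where adding 1 understates fold changes. Its difference on the log2(TPM + 1) scale therefore does not rank the fold rises of the backgrounds. This comparison shares its libraries with the 2 transitions and the 2 comparisons of Tet3-/- with XX cells. The 95% intervals of the difference on TPM were -0.30 to 1.16 for Otx2, -0.67 to 1.55 for Zic2 and -0.27 to 1.83 for Pou3f1, so differences within these bounds are not excluded by these libraries. With the replicate block 1 gene in all was called in place of 26, and again 0 of the 8 factors.

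Between the 2 wildtype lines, 4 factors differed in mESC, where 14.2% of all genes were called. Otx2 was higher in XX by 2.90 ± 0.25 (SE; limma, adjusted p = 4.08e-07) and Grhl2 by 1.33 ± 0.37 (adjusted p = 0.0219). Zic2 was lower in XX by 1.84 ± 0.39 (adjusted p = 0.00297) and Sall2 by 1.09 ± 0.20 (adjusted p = 0.00099). On scaled TPM Zic5 was called lower too (-0.59, adjusted p = 0.0263), where 31.3% of all genes were called. The Grhl2 difference lay mainly in the non-coding Grhl2-205, with means of 7.44 TPM in XX and 2.22 TPM in XY mESC. Over protein-coding transcripts it was 0.80 and not called (adjusted p = 0.0627), and it was also lost without XX mESC replicate 1 or 3 or XY mESC replicate 1. When only the 2 groups were fitted, the Zic2 and Grhl2 calls were lost (adjusted p of 0.0546 and 0.14). The streak gene T measured 4.75 to 7.81 TPM in XY mESC and at most 0.0602 TPM in XX mESC, a difference that moves with these values and whose part in them was not tested.

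In EpiLC 7 of the 8 factors were lower in XX than in XY cells, where 47.2% of all genes were called and 42% were called lower. The differences ran from -1.52 for Pou3f1 to -3.80 for Zic2, and Grhl2 differed by -0.21 (limma, adjusted p = 0.663). Scaling moved the median of all genes from -0.59 to near 0 and the 7 were called lower again, against 33.8% of all genes called and 16.6% called lower, from -0.87 for Pou3f1 to -3.09 for Zic2, while Grhl2 changed sign to 0.46 without a call. Fgf5, an epiblast marker, measured 2.46 ± 0.292 TPM in XX EpiLC and 56.3 ± 4.83 TPM in XY EpiLC (SD, n = 3 each). Esrrb, a naive factor, measured 12.6 ± 1.26 and 0.714 ± 0.150 TPM in the same groups. Other members of their lists went the other way. Of 10 other listed formative genes, 7 were called lower in XX EpiLC and 2, Tcf15 and Etv4, higher. Of 11 listed naive factors, 8 were called higher in XX EpiLC and 1, Nanog, lower. On scaled TPM the formative genes came to 7 lower and 3 higher, and the naive factors to 9 higher and 0 lower. The 6 primitive endoderm markers summed to 1.01 to 1.08 TPM in XX EpiLC and 6.10 to 6.72 TPM in XY EpiLC, with Foxa2 at 0.0530 and 3.71 TPM as means. In XY EpiLC 3 of the 6, Gata6, Sox7 and Pdgfra, lay below 1 TPM in every library, so the sum does not show primitive endoderm cells there. The streak markers given above were also higher in XY EpiLC. The part of these markers in the differences was not tested.

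The XX minus XY transition was called for 5 factors, all below 0, where 16% of all genes were called and 12.4% called lower. The differences were -5.29 for Otx2, -2.21 for Sall2, -1.96 for Zic2, -1.85 for Sox3 and -1.75 for Zic5 (limma, adjusted p of 3.82e-08, 3.63e-05, 0.0196, 4.51e-06 and 0.00977). Otx2 fell in XX and rose in XY cells, while Sall2, Zic2, Sox3 and Zic5 rose in both and less in XX cells. Foxd3, Pou3f1 and Grhl2 had the same sign and missed the threshold, with adjusted p of 0.0709, 0.0529 and 0.0559. On scaled TPM 6 were called, Foxd3 being added (-0.87), where 23.7% of all genes were called. For Foxd3 the negative difference is a larger fall in XX cells, -2.12 against -1.25 in XY cells on scaled TPM. The Zic2 call was lost without XX mESC replicate 3, XY mESC replicate 2 or XY EpiLC replicate 3 (adjusted p of 0.0538, 0.0506 and 0.0531), and with no filter (adjusted p = 0.0505). With a pseudocount of 0.1 the Zic2 and Zic5 calls were both lost (adjusted p of 0.218 and 0.118), as they were with TPM rescaled over protein-coding genes (adjusted p of 0.173 and 0.0748).

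The order of the groups differed among the factors. XY EpiLC stood first for Otx2, Zic2, Zic5, Sall2 and Sox3 with no overlap with the group below. For Pou3f1 it stood first by its mean with overlap with Tet3-/- EpiLC, and for Grhl2 with overlap with XX EpiLC. This order is on TPM, where 42% of all genes were called lower in XX than in XY EpiLC. The share of all genes with XY EpiLC first and apart was not counted. On scaled TPM the highest mean of Pou3f1 was in Tet3-/- EpiLC (7.57, against 6.70 in XY EpiLC) and that of Grhl2 in XX mESC (11.6). The lowest group was XY mESC for Otx2, Grhl2 and Sox3, Tet3-/- EpiLC for Foxd3 and XX mESC for Pou3f1, Zic2, Zic5 and Sall2. Of these lowest groups on TPM, XY mESC stood apart from the next group for Otx2 and Grhl2, and the others overlapped with the group next to them.

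Over the 19 libraries, as a description across samples that share groups, Zic2 and Sall2 had a Pearson r of 0.98 in log2(TPM + 1), Zic2 and Zic5 0.97, and Pou3f1 and Sox3 0.95. Foxd3 had negative r with each of the other 7, from -0.53 with Pou3f1 to -0.07 with Zic2. Of the 9512 protein-coding genes compared, the most like were Hdgfl3 for Otx2 (0.96), Zfp984 for Foxd3 (0.98), Foxi3 for Pou3f1 (0.99), Stk39 for Zic2 (0.98), Vrtn for Zic5 (0.98), Gpc6 for Sall2 (0.99) and Pcdh7 for Sox3 (0.99). Grhl2 had a less close best match, 2610002M06Rik (0.93). Hdgfl3 shared the high level in XX mESC with Otx2, at 4.91 TPM against 0.874 TPM in XY mESC as means.

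Of 10 other listed formative genes, 9 were called higher in EpiLC in XX, 8 in XY and 7 in Tet3-/- cells, and none lower on TPM, beside the shares of all genes given above. Their median log2 fold changes were 1.89, 2.28 and 2.17. On scaled TPM 9, 7 and 9 were called higher and 1 was called lower, in XY cells, with medians of 1.87, 1.65 and 2.34. Dnmt3b, a de novo DNA methyltransferase, rose by 2.17, 3.75 and 2.20 (limma, adjusted p of 0.000768, 1.23e-06 and 0.000292). Etv4, an ETS factor, rose by 3.06 in XX and 2.61 in Tet3-/- cells (adjusted p of 0.000486 and 0.000946) and differed by 0.00 in XY cells. Of 11 listed naive factors, 10 were called lower in each background, with medians of -2.84, -4.24 and -3.68. The exception was Klf5 in XX and Tet3-/- cells and Nanog in XY cells, where it measured 135 ± 53.9 TPM in mESC and 78.1 ± 3.46 TPM in EpiLC (SD, n = 3 each; limma, adjusted p = 0.0758). On scaled TPM Nanog was called in XY cells as well (-1.36).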

How the data were processed

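The authors deposited 1 table of TPM per transcript, whose columns each sum to 1000000. FastQC 0.11.7, Trimmomatic 0.35, Salmon 1.1.0 and GRCm38 are named per the submitters' processing notes. TPM keeps no counts, so neither depth nor counting error is known. TPM were summed per gene with GENCODE M21: of 140948 transcripts 139357 matched with version and 495 without, and the 1096 unmatched held at most 0.215% of TPM. limma 3.58.1 in R 4.3.3 (eBayes with trend) was fitted to log2(TPM + 1) of 19 libraries in 6 groups, with 9 contrasts and Benjamini-Hochberg adjustment over 14972 genes. Adding 1 understates changes of low genes. Scaled TPM divide each library by its median ratio over tested genes. Transcripts whose 5′ ends lie within 1000 bases of the next were summed as 1 start. The fit was tested on simulated data. The factors, lists and tests were chosen with earlier results of these data known. Named were all 8 factors, genes of those lists, genes within 20 kb, and for likeness the protein-coding genes with the highest r and a mean of at least 5 TPM in a group. Alternatives were another pseudocount, no filter, 2 other scalings, protein-coding transcripts alone, the compared groups alone, a replicate block and each library left out. Tet3-/- mESC and EpiLC libraries are paired by the mutant number in the labels. The main fits did not use this pairing, and the replicate block did. Their deviations from the group means correlated at 0.271, 0.303 and -0.0202 for mutants #1, #3 and #4. Counts over the list of paralogs are not reported here.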

Additional observations from a re-analysis of the deposited data

Results flagged for a closer look

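The change from mESC to EpiLC differed between the XX and XY lines for 5 factors by the test of the difference itself (limma on log2(TPM + 1), XX minus XY). The difference was -5.29 for Otx2, which fell in XX and rose in XY cells. It was -1.96 for Zic2, -1.75 for Zic5, -2.21 for Sall2 and -1.85 for Sox3, which rose in both lines. Sex and cell line cannot be told apart in these values. Sox3 also differed between the Tet3-/- and XX transitions, by 0.78, on scaled TPM and not on TPM. Its mESC means were 0.0524 TPM in XX and 0.182 TPM in Tet3-/- cells, far below the added 1. The difference therefore does not show a larger fold rise of Sox3 in Tet3-/- cells.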

How the results depend on the processing

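Of the recomputed fold changes of the factors, 1004 kept their direction and side of the threshold, 34 lost a call, 21 gained one and 21 changed sign. The number of factors called between Tet3-/- and XX EpiLC, 1 on TPM, was 0 with a pseudocount of 0.1, 0 when only the compared groups were fitted, 4 with median-of-ratios scaling, 4 with that scaling and without mutant #3 (chosen after seeing the data), and 0 to 1 with single libraries left out. For the Tet3-/- minus XX transition it was 0 on TPM and 1 under either of these scaled settings. Between XX and XY mESC it was 4, and 2 when only the compared groups were fitted. For the XX minus XY transition it was 5, and 3 with a pseudocount of 0.1. No called value changed sign. Between Tet3-/- and XX mESC, Otx2 became -0.15, Zic5 -0.045 and Sall2 -0.024 with median-of-ratios scaling, and Otx2 -0.086 and Zic5 -0.030 with TPM rescaled over protein-coding genes. Grhl2 between XX and XY EpiLC became 0.46 and 0.37 under these scalings. With single libraries left out, Foxd3 ranged from -0.38 to 0.20 and Grhl2 from -0.73 to 0.075 between Tet3-/- and XX mESC, and Grhl2 from -0.50 to 0.039 between Tet3-/- and XX EpiLC. Likewise Grhl2 in the XX transition ranged from -0.18 to 0.63 and Sox3 between XX and XY mESC from -0.0022 to 0.032. In the Tet3-/- minus XX transition the ranges were -0.50 to 0.076 for Foxd3, -0.0026 to 0.67 for Zic2 and -0.24 to 0.58 for Grhl2. The cause was not tested.

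For wildtype libraries the replicate numbers share no stated source, while the mutant numbers do. The deviations of same-numbered mESC and EpiLC libraries from their group means correlated at 0.0695, -0.0488 and 0.0320 in XX and 0.186, -0.0426 and 0.243 in XY cells, and those of XX and Tet3-/- mESC at 0.517, 0.443 and -0.440. Since not all exceed 0.1, numbers other than those of the mutants were not taken as pairs. The main fits used no pairs, and the replicate block grouped wildtype libraries by number too. With a replicate block the factors called were 6 in the XX, 8 in the XY and 6 in the Tet3-/- transition, where the Otx2 fall in XX cells had an adjusted p of 0.061 (limma). They were 0 and 1 for Tet3-/- against XX, 4 and 7 for XX against XY, in mESC and EpiLC, and 0 and 5 for the 2 differences of transitions. Grhl2 became -0.038 in the Tet3-/- minus XX transition under the block.

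Over all genes, calls depended on scaling: 4689 and 7542 in the XX transition, 90 and 477 between Tet3-/- and XX mESC, 161 and 817 in EpiLC, 2121 and 4679 between XX and XY mESC, and 26 and 99 in the Tet3-/- minus XX transition, on TPM and scaled TPM. With TPM rescaled over protein-coding genes the calls were 155, 655, 3578 and 89 in the last 4 of these, and 4029 between XX and XY EpiLC against 7074. Fitting only the compared groups gave 2 between Tet3-/- and XX mESC, 11 in EpiLC, 800 between XX and XY mESC and 10900 in EpiLC. Between Tet3-/- and XX mESC there were 34 with a pseudocount of 0.1, 55 with no filter and 53 with the block, and in the Tet3-/- minus XX transition 17 with a pseudocount of 0.1, 46 over protein-coding transcripts and 1 with the block. Leaving out 1 library gave 13 to 361 calls between Tet3-/- and XX mESC and 27 to 315 in EpiLC. It gave 1345 to 3491 between XX and XY mESC, 3655 to 6447 in EpiLC (7074 with all libraries), 3 to 102 in the Tet3-/- minus XX transition and 1389 to 3155 in the XX minus XY transition (2397). The shares of all genes called that stand beside the factors move with these counts.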
